A study of Homo sapiens with 3 samples.

Results

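Smooth muscle contractile genes were followed across blood vessel organoids with and without induction of the neurogenic factor NEUROD1. The 10 genes were taken by gene symbol from the 33538 gene identifiers in the count matrices, and all 10 were found: ACTA2, ACTG2, MYH11, MYL9, TPM1, TPM2, CALD1, CNN1, TAGLN and SMTN. They were chosen as the textbook set of the smooth muscle contractile apparatus, not by a measured value. Earlier results of these data were known when they were chosen. All organoids came from the established human embryonic stem cell line H1, into which a NEUROD1-P2A-GFP cassette that responds to doxycycline had been placed by PiggyBac transposon. In every group the medium held BDNF and NT-3 from day 15. Organoids received doxycycline at 1 µg/ml for 45 days, for 15 days, or not at all, and all were at day 45. Which 15 days were induced, and whether the line was 1 clone, is not in the labels. Each group is 1 library of 5 to 6 pooled organoids, broken up with papain (20 U/ml, 30 min) and captured with the 10x Chromium 3′ v3 chemistry, which reads the 3′ ends of transcripts.

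Smooth muscle cells and pericytes, together called mural cells, wrap the endothelial tube of a vessel. Contraction there depends on myosin filaments that pull on actin, with tropomyosin, caldesmon and calponin on the thin filament, and on phosphorylation of the myosin regulatory light chain. Many of these genes are switched on together by serum response factor (SRF), which binds a DNA element called the CArG box, and its myocardin-family partners. Several of them are also used outside smooth muscle: fibroblasts that become contractile raise ACTA2 and TAGLN, and tropomyosins and caldesmon serve the cytoskeleton of most cells.

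The genes lie on 10 different chromosomes (GRCh38, GENCODE 29). Of the actins, ACTA2 (ENSG00000107796) spans chr10:88935074-88991339 on the minus strand and ACTG2 (ENSG00000163017) spans chr2:73892314-73919865 on the plus strand. Of the myosin chains, MYH11 (ENSG00000133392) spans chr16:15703172-15857033 on the minus strand and MYL9 (ENSG00000101335) spans chr20:36541484-36551447 on the plus strand. The thin-filament genes are TPM1 (ENSG00000140416) at chr15:63042632-63071915 (plus), TPM2 (ENSG00000198467) at chr9:35681992-35690121 (minus), CALD1 (ENSG00000122786) at chr7:134744252-134970728 (plus), CNN1 (ENSG00000130176) at chr19:11538717-11550323 (plus) and TAGLN (ENSG00000149591) at chr11:117199321-117204782 (plus). SMTN (ENSG00000183963) spans chr22:31064105-31104757 on the plus strand. No other gene among those in the count matrices overlaps any of them on the same strand. ACTA2, TAGLN, MYH11, TPM1, MYL9 and SMTN each overlap at least 1 gene on the other strand, among them FAS for ACTA2 and PCSK7 for TAGLN, and whether counting used strand is not given in the sources used here.

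RefSeq promoter windows of 300 bases (GRCh38.p14, from 250 before the start site to 50 after it) were at hand for 7 of the 10 genes, in 15 windows; TAGLN, MYH11 and MYL9 were not searched. They are shown because many of these genes share SRF as a regulator. A CArG box, searched on both strands by its name-giving form of CC, 6 A or T letters and GG, was present in 2 windows, those of ACTG2 and SMTN. A looser form with 1 G or C inside the A/T core was present in a window of ACTA2 and in a window of CALD1. Among all 35116 RefSeq windows of this length, 1.29% held the strict form and 6.94% the looser one. The ACTG2 window (chr2:73892758-73893057, plus strand) has strict boxes that begin 110 and 73 bases before the start site. In the SMTN window (chr22:31084746-31085045, plus strand) the box begins 44 bases before the start site. The ACTA2 window (chr10:88952724-88953023, minus strand) has looser matches that begin 121 and 71 bases before it. Capitals mark the matches, and a match describes the letters and not a bound site.
ACTG2: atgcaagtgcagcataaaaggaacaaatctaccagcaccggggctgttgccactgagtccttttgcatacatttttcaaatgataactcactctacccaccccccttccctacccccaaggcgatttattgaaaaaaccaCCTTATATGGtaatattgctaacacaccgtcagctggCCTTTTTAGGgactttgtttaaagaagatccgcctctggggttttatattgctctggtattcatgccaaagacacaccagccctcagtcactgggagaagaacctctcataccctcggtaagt
SMTN: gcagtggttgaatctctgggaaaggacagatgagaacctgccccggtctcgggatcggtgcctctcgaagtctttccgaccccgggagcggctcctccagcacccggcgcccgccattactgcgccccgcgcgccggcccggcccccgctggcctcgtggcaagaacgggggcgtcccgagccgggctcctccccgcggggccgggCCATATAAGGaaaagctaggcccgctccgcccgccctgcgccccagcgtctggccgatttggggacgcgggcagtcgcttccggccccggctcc
ACTA2: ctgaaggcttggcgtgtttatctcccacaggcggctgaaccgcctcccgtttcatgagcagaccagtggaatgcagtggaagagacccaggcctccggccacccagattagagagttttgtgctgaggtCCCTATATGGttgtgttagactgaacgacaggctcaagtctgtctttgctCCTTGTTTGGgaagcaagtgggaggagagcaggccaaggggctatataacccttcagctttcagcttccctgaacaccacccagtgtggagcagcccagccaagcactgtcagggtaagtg

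The deposited libraries held 49488425 to 64171327 unique molecular identifiers (UMIs, counts of captured transcript molecules). After filters on UMIs, genes and mitochondrial share and removal of likely doublets, 8133 cells remained without induction, 5050 with 15 days and 8813 with 45 days, and the median cell had 5139, 7320 and 5557 UMIs, of which 4.61%, 3.78% and 2.93% were mitochondrial. NEUROD1 stood at 1.53, 1.44 and 45.3 CPM (counts scaled to a common total of UMIs). By NEUROD1 counts the library labelled 15 days did not stand above the uninduced one, so this check does not bear out its label. The chemistry reads 3′ ends and the cassette runs on past NEUROD1 into GFP. The counts may therefore miss transcripts of the cassette, and the check cannot settle the label. The library labelled 15 days held 302 neuron-like cells, against 0 without induction and 305 with 45 days, and "15 days" below means the library so labelled. Between 9 and 24 barcodes were shared by pairs of libraries among kept cells. With 1 library per group there is no test between groups: intervals in brackets are 95% intervals for counting error only, and they cover neither the difference between organoids nor that between cells.

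Cells were put in classes from marker genes that include none of the 10, after clustering without the 10 or the related genes described further on. Mural-like cells were 464 without induction (5.71% of cells), 991 with 15 days (19.6%) and 992 with 45 days (11.3%). The size of the class depends on how it is set. Other settings, with cluster 9 alone the smallest, gave 297 to 816 cells without induction, 388 to 1078 with 15 days and 548 to 1381 with 45 days. Mesenchymal-like cells were 73.4%, 50.6% and 69.9% of cells in the same order. The mural-like class joins cluster 9, with 11 of 12 mural markers raised, and cluster 6, with 5 of 12 and none of them among its 10 leading genes. Cluster 9 had FABP4, HES5, CD36, PLN and ABCC9 among its leading genes, and cluster 6 had CDKN2B-AS1, G0S2 and CDKN2A. The class mixes them unequally, 297 cells of cluster 9 to 167 of cluster 6 without induction, 388 to 603 with 15 days and 548 to 444 with 45 days, so values are also given for each cluster. The 12 mural markers summed to 2917 CPM, 3307 CPM and 3145 CPM in cluster 9 and to 1069 CPM, 942 CPM and 1070.4 CPM in cluster 6, in the same order.

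Over all cells, the contractile genes with at least 10 CPM in 1 of the 2 libraries compared were ranked. Among them TAGLN, TPM1 and MYL9 were furthest below the uninduced level in the induced libraries. ACTA2 was lower by less, and SMTN was higher. ACTG2, which has few counts, is outside this ranking and was lower too. A contrast was counted where the log2 ratio, with 5 CPM added to each side, passed 2-fold, and genes entered where at least 10 CPM was reached in 1 of the 2 libraries. MYH11, CNN1 and ACTG2 stayed under that floor, so 7 of the 10 entered. At 45 days 3 of the 7 were at least 2-fold lower than without induction and 0 were at least 2-fold higher. Among all 9312 genes that entered, 1.39% were lower and 1.75% higher by that measure. At 15 days 2 of the 7 were at least 2-fold lower and 0 higher, beside 1.11% lower and 4.5% higher among 9681 genes. The median log2 ratio of the 7 was -0.92 at 45 days and -0.68 at 15 days, against 0.14 and 0.20 over all genes that entered. A sum over a library cannot tell fewer cells of a type from less RNA per cell; the classes below give the values per class.

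ACTA2, the smooth muscle alpha-actin of vessels, had 4226 UMIs without induction, 2285 with 15 days and 2301 with 45 days, or 84.1 CPM, 50.6 CPM and 42.0 CPM. It was 2.0-fold lower at 45 days than without induction (1.90 to 2.11; log2 ratio -0.92) and 1.66-fold lower at 15 days (1.58 to 1.75; log2 ratio -0.68), and both log2 ratios, which have 5 CPM added, were short of the 2-fold mark. Both induced libraries were below the uninduced one and close to each other. ACTG2, the gamma-actin typical of gut and bladder muscle, had 331, 99 and 75 UMIs in the same order, which is 6.59 CPM, 2.19 CPM and 1.37 CPM. In the 15 day library 70.7% of the ACTG2 UMIs came from 10 cells, so this level rests on few cells.

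The myosin chains gave different depths of evidence. MYH11, the smooth muscle myosin heavy chain and the most specific marker of the set, had only 243 UMIs without induction, 134 with 15 days and 160 with 45 days. Its levels were 4.83 CPM, 2.97 CPM and 2.92 CPM, a 1.66-fold lower level at 45 days than without induction (1.35 to 2.04). MYL9, the regulatory light chain whose phosphorylation starts contraction, stood at 106.4 CPM without induction, 50.7 CPM with 15 days and 32.6 CPM with 45 days. The 45 day level was 3.26-fold below the uninduced one (3.09 to 3.44; log2 ratio -1.57). At 15 days MYL9 was 2.10-fold lower (2.0 to 2.20), and with 5 CPM added it came just short of the 2-fold mark at a log2 ratio of -0.9996.

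Among thin-filament genes the differences ran from large to small. TAGLN, whose product SM22 binds actin and is an early smooth muscle marker, stood at 171 CPM without induction (8593 UMIs), 32.2 CPM with 15 days (1454 UMIs) and 37.6 CPM with 45 days (2064 UMIs). It was 4.54-fold lower at 45 days (4.33 to 4.77; log2 ratio -2.04) and 5.31-fold lower at 15 days (5.02 to 5.61; log2 ratio -2.24), the widest gap among the 7 genes above the floor in both contrasts. TPM1, a tropomyosin that lies along actin and is used in many cell types through splice forms, stood at 935.6 CPM, 305.3 CPM and 249.7 CPM in the order of none, 15 and 45 days. That is 3.75-fold lower at 45 days (3.68 to 3.82; log2 ratio -1.88) and 3.06-fold lower at 15 days (3.01 to 3.12; log2 ratio -1.60). The related TPM2 differed by less, at 312.9 CPM, 211.7 CPM and 283.3 CPM (log2 ratios of -0.14 at 45 days and -0.55 at 15 days), and the counts used here do not separate splice forms of either gene.

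CALD1, caldesmon, which restrains actin and myosin when calcium is low, also stayed within a narrow range of 787.3 CPM without induction, 642.8 CPM with 15 days and 709.8 CPM with 45 days. CNN1, calponin, an actin-binding brake on myosin that marks mature smooth muscle, was near 9 CPM throughout, at 8.99 CPM, 7.55 CPM and 9.21 CPM. SMTN, smoothelin, an actin-binding protein of contractile smooth muscle, ran the other way. It stood at 29.6 CPM without induction, 45.8 CPM with 15 days and 34.6 CPM with 45 days, 1.17-fold higher at 45 days (1.09 to 1.25) and 1.55-fold higher at 15 days (1.45 to 1.65). Its log2 ratios of 0.20 and 0.55 did not reach 2-fold.

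**Figure D1:**
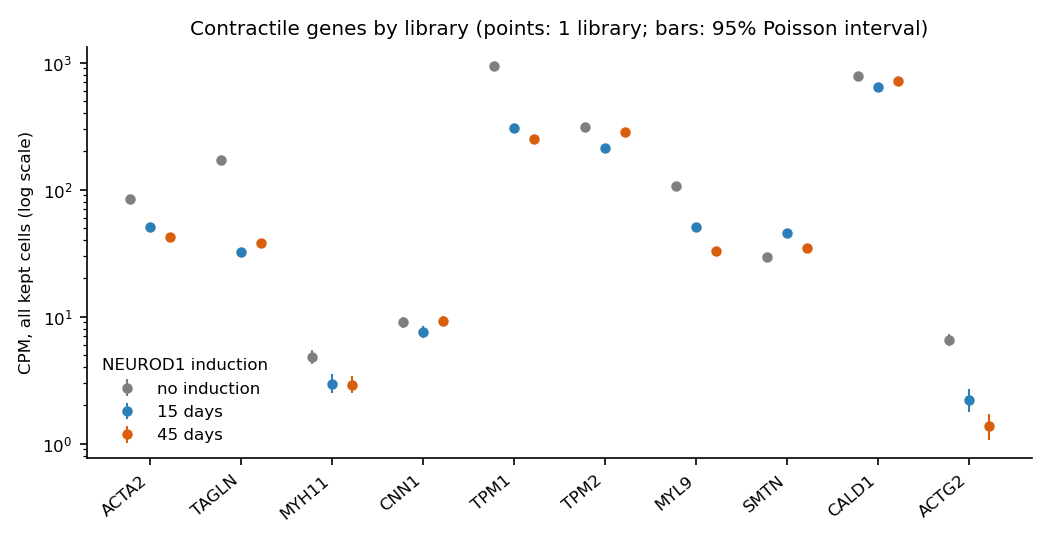
CPM of each contractile gene over all kept cells (log axis) in the library without induction (grey), with 15 days (blue) and with 45 days (orange), with 95% Poisson intervals. TAGLN, TPM1 and MYL9 stand highest without induction, SMTN stands lowest there, and CNN1, TPM2 and CALD1 differ little.

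The induced libraries were also set against each other. Between 45 days and 15 days, 0 of the 7 genes were 2-fold apart in either direction, where 0.217% of 9670 genes were higher and 1.66% lower. The largest of these log2 ratios were -0.57 for MYL9 and 0.41 for TPM2. TPM2, SMTN and CNN1 at 45 days lay nearer to the uninduced level than to that of 15 days. Both induced libraries are set against the same uninduced library, so that library takes part in every contrast with it. Scaling by the median of ratios over genes in place of total UMIs shifts the ratios of scaled counts by -0.15 (log2) at 45 days and by -0.21 at 15 days. With that scaling ACTA2 also passed 2-fold at 45 days and MYL9 at 15 days, and SMTN came to log2 ratios of 0.07 and 0.37. Of the 10 genes CNN1 turned direction with it, at 45 days, with log2 ratios of 0.02 by total UMIs and -0.08 by the median of ratios.

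**Figure D2:**
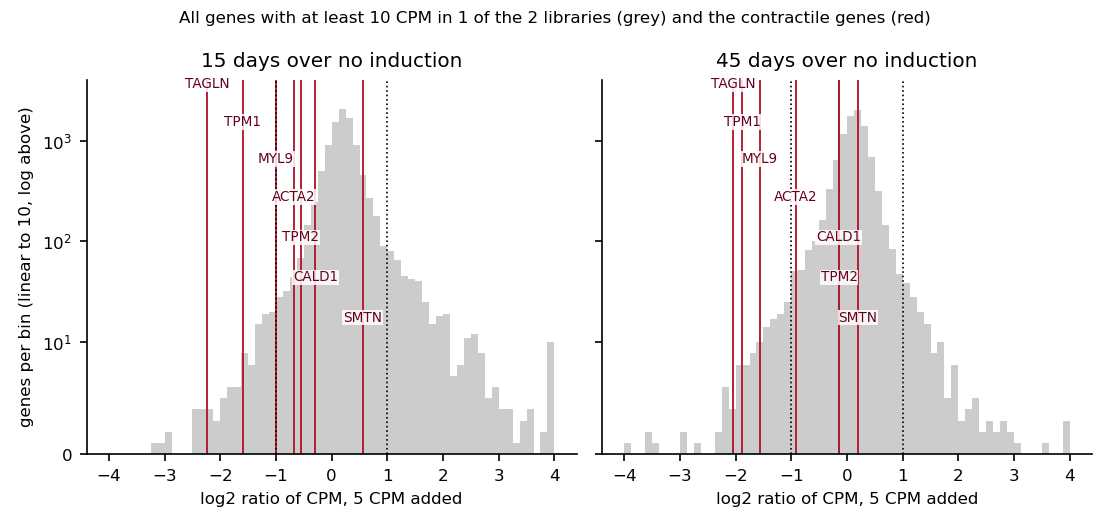
Histogram of log2 ratios (5 CPM added) over all genes with at least 10 CPM in 1 of the 2 libraries, 15 days over no induction on the left and 45 days over no induction on the right, with the 7 contractile genes as red lines and 2-fold as dotted lines; the count axis is linear to 10 and logarithmic above. TAGLN and TPM1 lie beyond the lower dotted line in both panels, MYL9 beyond it at 45 days and on it at 15 days, and SMTN above 0 in both.

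Within each library most contractile genes were higher in mural-like than in mesenchymal-like cells, ACTA2 and MYH11 by the widest margins without induction. Without induction 6 of the 10 genes were at least 2-fold higher in mural-like than in mesenchymal-like cells and 0 were lower, where 4.83% of 8733 genes were higher and 3.8% lower. MYH11 and CNN1 passed the floor through the mural-like class alone, in every library, as did ACTG2 without induction. Of the 7 genes above it in both classes, 4 were at least 2-fold higher without induction, 4 at 15 days and 5 at 45 days. ACTA2 stood at 707.6 CPM in mural-like and 53.8 CPM in mesenchymal-like cells, 13.1-fold higher (12.3 to 14.0), and MYH11 at 52.4 CPM and 1.46 CPM, 36.0-fold higher (25.9 to 50.9). SMTN was 3.88-fold, TAGLN 3.73-fold, CNN1 2.93-fold and MYL9 2.27-fold higher. For CNN1, 10 cells held 60.3% of the 78 mural-like UMIs. TPM1, TPM2 and CALD1, the genes of wider use, were 1.58-fold, 1.65-fold and 1.45-fold higher and did not reach 2-fold. The clusters of the class differed here. The median log2 ratio over mesenchymal-like cells was 1.53 in cluster 9 (10 genes) and -0.18 in cluster 6 (7 genes). Over all genes it was 0.08 and 0.05. ACTA2 was at 1010.5 CPM in cluster 9 and 58.1 CPM in cluster 6. In cluster 6 SMTN was past 2-fold higher and TAGLN past 2-fold lower.

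At 15 days 5 of 9 genes above the floor were at least 2-fold higher in mural-like cells, beside 3.05% higher and 2.32% lower of 9095 genes. At 45 days 6 of 9 were, beside 4.82% higher and 2.74% lower of 9122 genes. ACTA2, TAGLN, MYH11, MYL9 and SMTN were in that count in every library, CNN1 only without induction and TPM1 only at 45 days. For ACTA2 the distance between classes was 2.85-fold at 15 days (2.61 to 3.12) and 6.81-fold at 45 days (6.24 to 7.44). For MYH11 it was 22.4-fold (12 to 46.1) and 18.1-fold (12 to 27.9). Cluster 6 made up 603 of the 991 mural-like cells at 15 days and 444 of the 992 at 45 days. At 15 days the median log2 ratio over mesenchymal-like cells was 1.81 in cluster 9 and 0.30 in cluster 6. At 45 days it was 1.99 and 0.47. How far the distances between classes follow the mix of clusters was not tested. Other ways to set the classes or the added constant gave counts of 4 to 9 genes in the uninduced library, 4 to 7 with 15 days and 5 to 7 with 45 days. ACTA2, TAGLN, MYH11 and SMTN were in it under all 8 alternatives in each library, and MYL9 under 5 of 8 without induction.

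**Figure D3:**
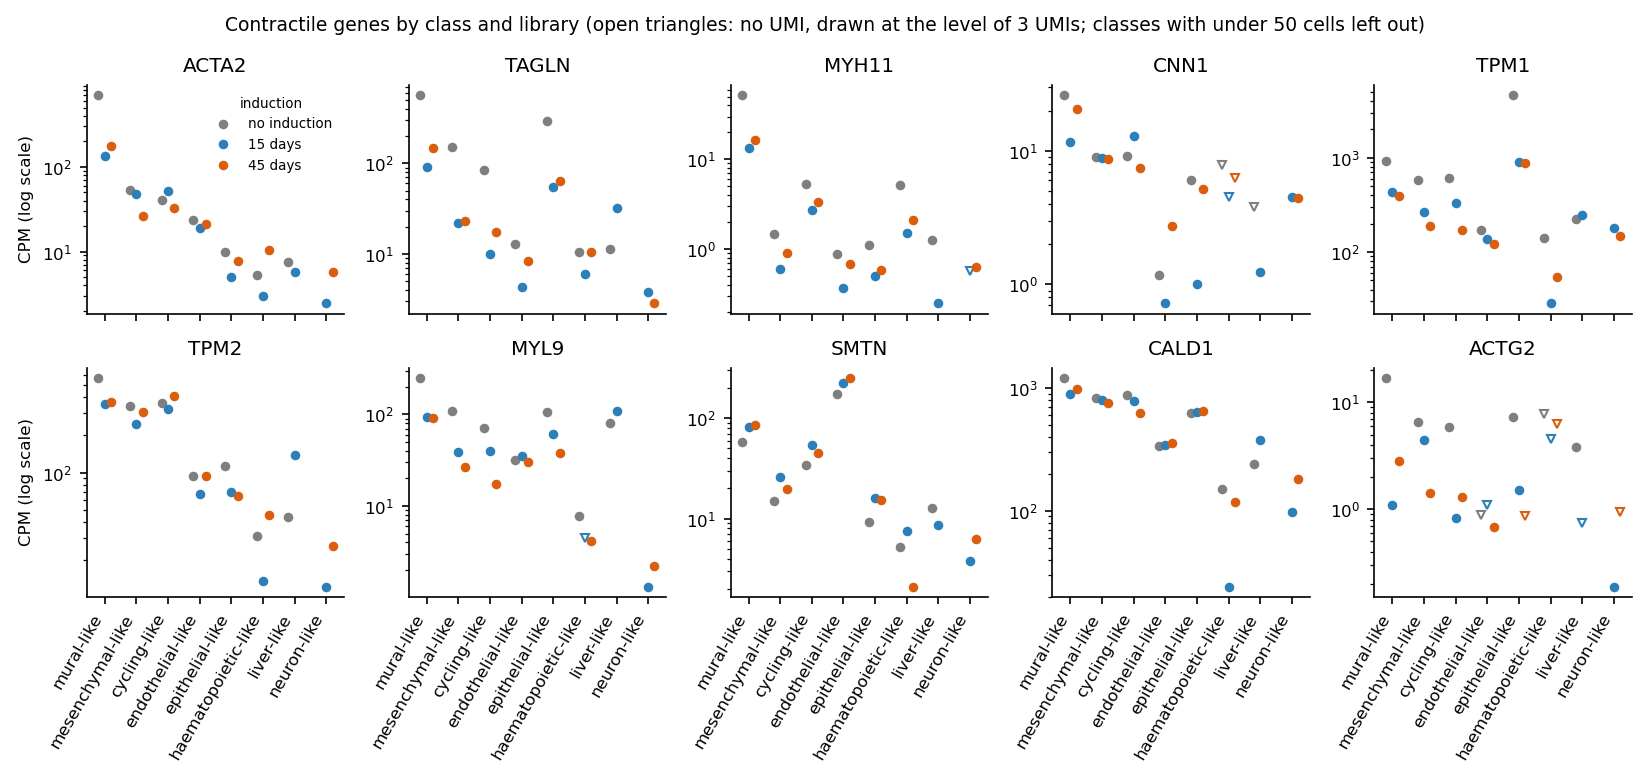
CPM of each contractile gene (log axis, 1 panel per gene) in 8 classes of cells and 3 libraries, with open triangles for a sum of 0 drawn at the level of 3 UMIs; classes with under 50 cells in a library are left out. ACTA2 and MYH11 peak in mural-like cells, TPM1 in epithelial-like cells and SMTN in endothelial-like cells, in each library where the class is shown.

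Across all classes of the uninduced library the order differed by gene. ACTA2 stood at 708 CPM in mural-like cells (678 to 739), 53.8 CPM in mesenchymal-like (51.4 to 56.4), 40.7 CPM in cycling-like (35.4 to 46.5) and 23.3 CPM in endothelial-like cells (18.5 to 29.1). Epithelial-like, liver-like and haematopoietic-like cells came last at 9.77 CPM, 7.58 CPM and 5.22 CPM, with overlapping intervals. TAGLN was second highest in epithelial-like cells, at 296 CPM (281 to 313) against 573 CPM in mural-like cells. TPM1 was highest in epithelial-like cells at 4651 CPM, followed by mural-like cells at 925 CPM, and its cycling-like and mesenchymal-like levels of 604 CPM and 587 CPM overlapped. SMTN was highest in endothelial-like cells at 175 CPM, above 57.5 CPM in mural-like cells.

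About the same share of ACTA2 UMIs came from the joined mural-like class in each library, 49.8% without induction, 48.7% with 15 days and 49.7% with 45 days. Its clusters did not hold level shares. Cluster 9 held 48.5%, 33.7% and 40.6% of ACTA2 UMIs in the same order, and cluster 6 held 1.30%, 15.0% and 9.08%. Mural-like cells held 5.92%, 18.2% and 11.7% of all UMIs, so the mural-like share of the transcriptome was larger in both induced libraries. MYH11 was the most concentrated of the genes named here, with 64.2%, 81.3% and 65.6% of its UMIs in mural-like cells. For TAGLN the mural-like share was 19.8% without induction, 51.0% with 15 days and 45.4% with 45 days. Epithelial-like cells gave 44.5% of TPM1 UMIs without induction, 12.9% with 15 days and 22.4% with 45 days.

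**Figure D4:**
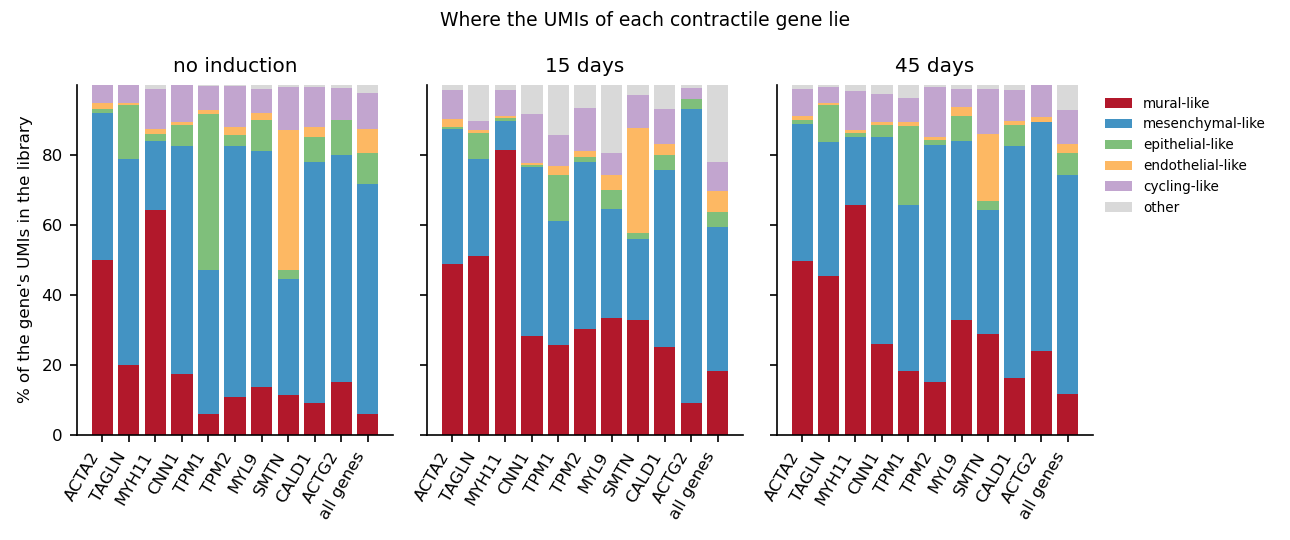
Share of each contractile gene's UMIs, and of all UMIs (last bar), that lie in 5 classes and in all other cells together, 1 panel per library. Mural-like cells (red) hold 48.7% to 49.8% of ACTA2 UMIs in every library, while their share of all UMIs is 5.92% without induction, 18.2% with 15 days and 11.7% with 45 days. The red bars join clusters 9 and 6. Cluster 9 alone holds 48.5%, 33.7% and 40.6% of ACTA2 UMIs in that order.

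Within mural-like cells both actins, MYH11, MYL9, TAGLN and TPM1 were lower in the induced libraries. At 45 days 6 of the 10 genes were at least 2-fold lower than without induction and 0 were higher, where 0.569% of 8788 genes were lower and 0.671% higher. At 15 days the same 6 were at least 2-fold lower, where 0.555% of 8832 genes were lower and 0.985% higher. ACTG2 is 1 of the 6 and passed the floor through the uninduced library alone, where it is high; of the 9 genes above the floor in both libraries, 5 were lower in each contrast. The median log2 ratio of the 10 was -1.31 at 45 days and -1.23 at 15 days, against 0.14 over all genes in each. ACTA2 stood at 707.6 CPM without induction (2106 UMIs), 135.7 CPM with 15 days (1113 UMIs) and 178.5 CPM with 45 days (1143 UMIs). That is 3.96-fold lower at 45 days (3.69 to 4.26) and 5.21-fold lower at 15 days (4.85 to 5.61). TAGLN stood at 572.6 CPM, 90.5 CPM and 146.5 CPM, 3.91-fold lower at 45 days (3.61 to 4.24) and 6.33-fold lower at 15 days (5.80 to 6.91).

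The myosin chains followed the actins in this class. MYH11 stood at 52.4 CPM without induction (156 UMIs), 13.3 CPM with 15 days (109 UMIs) and 16.4 CPM with 45 days (105 UMIs), 3.20-fold lower at 45 days (2.48 to 4.13) and 3.94-fold lower at 15 days (3.07 to 5.09). MYL9 was 2.70-fold lower at 45 days (2.42 to 3.02) and 2.65-fold lower at 15 days (2.40 to 2.94), and TPM1 2.38-fold (2.25 to 2.51) and 2.15-fold (2.05 to 2.26). ACTG2 had 50 UMIs without induction, 9 with 15 days and 18 with 45 days. TPM2, CALD1 and CNN1 did not reach 2-fold, with log2 ratios of -0.62, -0.28 and -0.29 at 45 days and -0.68, -0.43 and -0.90 at 15 days. Between 45 and 15 days 0 of 9 genes in the class were 2-fold apart, beside 0.079% of genes higher and 0.203% lower. SMTN was higher in mural-like cells too, at 57.5 CPM without induction, 82.3 CPM with 15 days and 85.0 CPM with 45 days.

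In cluster 9, the better marked of the mural-like clusters, the actins, myosin chains and TAGLN were lower too. ACTA2 stood there at 1010.5 CPM without induction, 219 CPM with 15 days and 245 CPM with 45 days, 4.13-fold lower at 45 days (3.82 to 4.46) and 4.62-fold lower at 15 days (4.25 to 5.02). TAGLN stood at 824 CPM, 181 CPM and 233 CPM, and MYH11 at 74.9 CPM, 29 CPM and 26.5 CPM. At 45 days 6 of the 10 genes were at least 2-fold lower in cluster 9 and at 15 days 5 of 10, with 0.676% of genes lower in each contrast and 1.22% and 0.94% higher. Without ACTG2, which again passed through the uninduced library alone, these were 5 of 9 and 4 of 9. In the 15 day contrast TPM1 stopped short of 2-fold at a log2 ratio of -0.97. In cluster 6, 0 of 7 genes above the floor were 2-fold apart in either contrast, beside 0.564% of genes lower and 1.65% higher at 45 days, and 0.384% lower and 1.49% higher at 15 days. ACTA2 in cluster 6 was 58.1 CPM without induction (55 UMIs), 73.1 CPM with 15 days and 80.7 CPM with 45 days, and MYH11 had 4, 7 and 4 UMIs. TPM1 there was at 518.8 CPM, 326.1 CPM and 265 CPM, just short of 2-fold at 45 days (log2 ratio -0.96), and TAGLN at 32.8 CPM, 22.0 CPM and 19.3 CPM (log2 ratios of -0.63 at 45 days and -0.48 at 15 days). Whether the clusters differ from each other in these ratios was not tested.

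Pericyte markers did not share one direction in cluster 9: RGS5 was at 693 CPM, 596 CPM and 483 CPM, PDGFRB at 665 CPM, 804 CPM and 889 CPM, and KCNJ8 at 199 CPM, 330 CPM and 345 CPM in the order of none, 15 and 45 days. Markers of striated muscle, which shares some of these proteins, summed to 29.9 CPM, 52.5 CPM and 43.1 CPM in mural-like cells, with 8, 6 and 6 of 14 markers at 0. Their part in the result was not tested.

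A few cells carried much of the ACTA2, TAGLN and MYH11 transcripts. In uninduced mural-like cells 10 of 464 held 50.8% of the ACTA2, 42.6% of the TAGLN and 39.1% of the MYH11 UMIs. For TPM1, TPM2, CALD1 and SMTN the top 10 cells held 15.2% to 20.7%, and for MYL9 31.0%. The 2 genes with few UMIs in the class were more concentrated still, ACTG2 at 94% (47 of 50 UMIs) and CNN1 at 60.3% (47 of 78 UMIs). In cluster 9 the summed UMIs of ACTA2, TAGLN and MYH11 had a median of 1.56 per 10000 UMIs without induction, 0.637 with 15 days and 0 with 45 days. Their 90th percentiles were 49.8, 8.64 and 8.87, and their highest values 228, 88.3 and 113. The libraries were also compared without the top cells of cluster 9. Left out were the cells with most of these UMIs. They numbered 30 of 297 without induction, 39 of 388 with 15 days and 55 of 548 with 45 days. ACTA2 was then at 60.1 CPM at 45 days against 269 CPM without induction, 4.48-fold lower (3.78 to 5.32). At 15 days ACTA2 was at 50.9 CPM, 5.29-fold lower (4.40 to 6.38). MYH11 was then 2.85-fold lower at 45 days and 2.22-fold lower at 15 days. TAGLN was 6.42-fold lower at 45 days and 8.11-fold lower at 15 days, against 3.54-fold and 4.54-fold with all cells of the cluster. The cells left out were picked by the same UMIs that are compared. An equal share was taken from each library, and the uninduced library has more cells with high values. High cells therefore stay in that library, and these ratios cannot show whether the differences depend on the top cells. Of the genes past 2-fold in cluster 9, ACTG2 was the 1 that no longer was in either contrast, with 3 UMIs without induction, 3 with 15 days and 7 with 45 days.

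**Figure D5:**
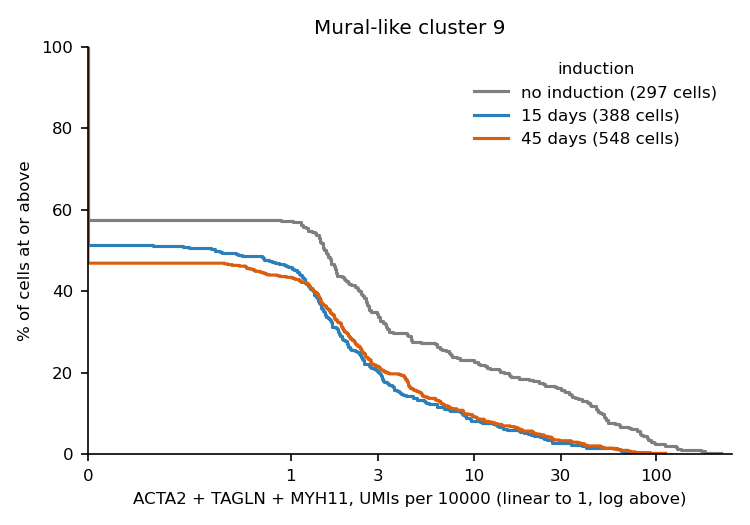
Share of cluster 9 cells (vertical axis) at or above a given sum of ACTA2, TAGLN and MYH11 per 10000 UMIs (horizontal axis, linear to 1 and logarithmic above), 1 line per library. The uninduced line lies above the induced lines along the whole tail, with a 90th percentile of 49.8 against 8.64 at 15 days and 8.87 at 45 days.

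Shares of mural-like cells with a transcript were also compared at equal depth. They were lower in the induced libraries, for ACTA2 at 45 days within overlapping intervals. Thinned to 2000 UMIs per cell, 20.6% of mural-like cells had an ACTA2 UMI without induction (17.0 to 24.5), 10.6% with 15 days (8.74 to 12.7) and 15.9% with 45 days (13.6 to 18.3). For TAGLN the shares were 19.0%, 6.69% and 8.77%, and for MYH11 6.93%, 2.06% and 2.11%. Thinning left out 2, 20 and 46 mural-like cells, and without thinning the ACTA2 shares were 33.6%, 31.1% and 30.2%. These shares join clusters 9 and 6, and cluster 6 is a larger part of the class in the induced libraries. Without thinning, 114 of 297, 133 of 388 and 171 of 548 cells of cluster 9 had an ACTA2 UMI. In cluster 6 it was 42 of 167, 175 of 603 and 129 of 444 cells. How far the pooled shares follow this mix was not tested. Haematopoietic-like cells, which should lack these genes, gave thinned ACTA2 shares of 1 of 60 cells (1.67%), 0 of 78 (which allows up to 3.85%) and 0 of 67 (up to 4.48%), and TAGLN shares of 3.33%, 2.56% and 2.99%. Their median depths were 4683, 7903 and 6079 UMIs, beside 5962, 7500 and 5850.5 in mural-like cells. For MYH11 they gave 2 of 60, 0 of 78 and 0 of 67 cells. The MYH11 shares of mural-like cells in every library, and their TAGLN shares in both induced libraries, overlap the intervals of haematopoietic-like cells. At this depth the shares alone do not tell them apart from background RNA. Summed without thinning, MYH11 was at 52.4 CPM, 13.3 CPM and 16.4 CPM in mural-like cells. In haematopoietic-like cells it was at 5.22 CPM, 1.51 CPM and 2.10 CPM, from 2, 1 and 1 UMIs. TAGLN in the 15 and 45 day libraries was at 90.5 CPM and 146.5 CPM against 6.03 CPM and 10.5 CPM, the latter from 4 and 5 UMIs.

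Cells with several contractile genes at once were rarer in the induced libraries. In cluster 9 thinned to 2000 UMIs, ACTA2 and TAGLN occurred together in 18.9% of cells without induction (14.6 to 23.8), in 3.95% with 15 days (2.23 to 6.43) and in 6.06% with 45 days (4.18 to 8.45). With MYH11 as well, the counts were 14 of 297 cells (4.71%), 0 of 380 (which allows up to 0.789%) and 1 of 528 (0.189%). At least 6 of the 10 genes were seen in 14.1%, 3.68% and 3.6% of these cells.

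Mesenchymal-like cells showed the lower TAGLN, TPM1 and MYL9 as well, with 3 of 7 genes at least 2-fold lower in both contrasts. Of all genes, 1.57% were lower and 1.13% higher at 45 days, and 1.54% lower and 2.33% higher at 15 days. TAGLN stood at 153 CPM without induction, 21.7 CPM with 15 days and 23.0 CPM with 45 days, 6.68-fold lower at 45 days (6.20 to 7.21) and 7.08-fold lower at 15 days (6.40 to 7.86). TPM1 was 3.09-fold and MYL9 4.08-fold lower at 45 days, and 2.22-fold and 2.83-fold lower at 15 days. ACTA2 was at 53.8 CPM, 47.6 CPM and 26.2 CPM. The class was drawn from clusters in different proportions: clusters 1, 2, 5 and 13 were the largest without induction, 4, 8, 5 and 13 with 15 days, and 4, 8, 7 and 13 with 45 days.

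Within the mesenchymal-like clusters that all 3 libraries filled with over 100 cells, TAGLN differed in some and not in others. In cluster 5, led by genes that include TCF21 and FOXF1, it was at 158.9 CPM, 29.7 CPM and 33.5 CPM in the order of none, 15 and 45 days, and in cluster 13 at 115 CPM, 30.5 CPM and 41.0 CPM. In cluster 4, led by genes that include CLDN11 and MEOX2, it was level at 25.5 CPM, 24.6 CPM and 24.0 CPM, with 28 UMIs without induction. In cluster 8 it was at 32.3 CPM (27 UMIs), 7.61 CPM and 28.8 CPM, and in cluster 7 at 44.8 CPM, 16.4 CPM and 6.99 CPM. MYL9 was level in cluster 4 (38.2 CPM, 38.0 CPM and 35.6 CPM) and at 22.7 CPM (19 UMIs), 25 CPM and 27.8 CPM in cluster 8, while in cluster 5 it was at 135 CPM, 86.6 CPM and 75.6 CPM. ACTA2 in cluster 4 was higher in both induced libraries, at 45.8 CPM at 15 days and 37.4 CPM at 45 days against 20 CPM (22 UMIs) without induction. TPM1 was lower in both induced libraries in each of these clusters, at 15 days in cluster 4 within overlapping intervals, from 319.1 CPM, 275.9 CPM and 194.5 CPM in cluster 4 to 671.9 CPM, 368.9 CPM and 296.1 CPM in cluster 5. How far the class values rest on the mix of clusters was not tested beyond the removal of cluster 3.

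Among the mesenchymal-like clusters, cluster 3 (463 cells without induction, 2 with 15 days and 30 with 45 days), led by genes such as COL15A1, NNMT and FMOD, held 42.6% of the uninduced mesenchymal-like TAGLN UMIs, 45.8% of ACTA2, 46.2% of MYL9 and 21.0% of TPM1. Without cluster 3, TAGLN was still 4.88-fold lower at 45 days and 4.91-fold lower at 15 days. MYL9 stood at 71.1 CPM without induction, 37.9 CPM with 15 days and 25.3 CPM with 45 days and no longer passed 2-fold at 15 days (log2 ratio -0.83). ACTA2 turned direction at 15 days, with 47.5 CPM against 35.4 CPM without induction (log2 ratio 0.38), and was at 26.2 CPM at 45 days (log2 ratio -0.37). Over whole libraries, leaving cluster 3 out gave the same genes past 2-fold in each contrast.

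Outside these classes TPM1 and SMTN had their highest levels. TPM1 in epithelial-like cells stood at 4651 CPM without induction, 892 CPM with 15 days and 889 CPM with 45 days, 5.23-fold lower at 45 days and 5.21-fold lower at 15 days. The class joins cluster 16, led by genes that include KRT4 and SPRR3, with 249 of the 452 uninduced cells but 71 of 503 at 45 days, and the KRT15 cluster 0. TPM1 was lower in each: 5840.2 CPM, 1813 CPM and 1918 CPM in cluster 16 and 1706 CPM, 676 CPM and 592 CPM in cluster 0, in the order of none, 15 and 45 days. Epithelial-like cells had 3 of 6 genes at least 2-fold lower at 45 days and 2 of 6 at 15 days, beside 3.16% and 3.42% of all genes lower and 4.21% and 6.07% higher. Without epithelial-like cells, TAGLN, TPM1 and MYL9 stayed the genes past 2-fold at 45 days. SMTN in endothelial-like cells stood at 175 CPM, 224 CPM and 250 CPM, and 0 of 7 genes there were 2-fold apart in either contrast, where 1.17% of genes were lower and 1.01% higher at 45 days, and 0.711% lower and 0.796% higher at 15 days.

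Because mural-like cells were a larger share of the induced libraries, the library ratios were also computed with the class makeup of the uninduced library given to both sides. The log2 ratio of ACTA2 was then -1.20 at 45 days and -0.79 at 15 days, against -0.92 and -0.68 as found. TAGLN was at -2.25 and -2.49, TPM1 at -1.85 and -1.50, MYL9 at -1.63 and -1.17 and SMTN at 0.41 and 0.51. With the makeup held, 4 genes were past 2-fold at 45 days, ACTA2 among them, and 3 at 15 days, MYL9 among them.

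Few genes of the wider contractile machinery were past 2-fold over whole libraries. Of 23 partner genes (kinases, anchors and channels of contractile cells), 18 entered at 45 days with 0 at least 2-fold higher and 0 lower, and 19 at 15 days with 1 in each direction. Of all genes, 1.39% were lower and 1.75% higher at 45 days, and 1.11% and 4.5% at 15 days. Counts of 0 or 1 in lists this short are near these shares and do not show that a list was level. SYNM, an intermediate filament protein, was at 16.8 CPM at 15 days against 3.56 CPM without induction, and PGM5, a junction protein of smooth muscle, at 7.0 CPM against 19.9 CPM. Of 15 related isoforms of the cytoskeleton, such as ACTB and MYH9, 13 entered. In each contrast 1 was past 2-fold, TAGLN3, a neuronal relative of TAGLN and not an isoform used in all cells. TAGLN3 was at 15.9 CPM at 45 days and 32.1 CPM at 15 days against 2.94 CPM without induction.

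In mural-like cells 18 partner genes entered each contrast and 1 was at least 2-fold lower. Of all genes there, 0.569% were lower and 0.671% higher at 45 days, and 0.555% and 0.985% at 15 days. PDLIM3, an adaptor that binds alpha-actinin, was at 5.85 CPM at 15 days and 7.50 CPM at 45 days against 27.9 CPM without induction. MYLK, the kinase of the myosin light chain, was at 80.3 CPM, 44.3 CPM and 50.8 CPM and PLN, which restrains calcium uptake, at 45.0 CPM, 23.3 CPM and 24.5 CPM in the order of none, 15 and 45 days, both short of 2-fold. Among isoforms MYH10, a non-muscle myosin heavy chain, was at 185 CPM at 15 days against 83.0 CPM without induction, the 1 gene past 2-fold with 15 days, with 0 of 12 past it with 45 days. ACTB was close to level at 3684 CPM, 3058 CPM and 3297 CPM.

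Of 14 regulators of contractile genes, 9 entered over whole libraries. At 45 days 1 was at least 2-fold higher and 1 lower, and at 15 days 2 were higher and 0 lower. Of all genes, 1.75% were higher and 1.39% lower at 45 days, and 4.5% and 1.11% at 15 days. FOXC1, a factor of mesenchyme and mural cells, was at 20.9 CPM at 45 days and 36.7 CPM at 15 days against 7.44 CPM without induction. FOXC2 was at 29.2 CPM at 15 days against 10.5 CPM, and GATA6, a factor of vascular smooth muscle, at 3.43 CPM at 45 days against 16.1 CPM without induction. In mural-like cells 0 of 11 regulators were past 2-fold at 45 days and 2 were higher at 15 days, FOXC1 at 103 CPM against 41.0 CPM and FOXC2 at 66.6 CPM against 29.9 CPM. Of all genes in that class, 0.671% were higher and 0.569% lower at 45 days, and 0.985% and 0.555% at 15 days. SRF itself was at 10.8 CPM, 12.6 CPM and 13.7 CPM in mural-like cells and MEF2C at 428 CPM, 353 CPM and 332 CPM. Between 45 and 15 days no gene of the 3 lists was past 2-fold over whole libraries, beside 0.217% of all genes higher and 1.66% lower.

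Within libraries the lists were also set between classes. Without induction 6 of 21 partner genes were at least 2-fold higher in mural-like than in mesenchymal-like cells (MYLK, PPP1R14A, KCNMB1, PLN, CSRP1 and VCL) and 2 lower (SYNPO2 and PGM5), beside the 4.83% of all genes higher and 3.8% lower. At 15 days 1 of 18 was higher (PLN) and 1 lower (FHL2), and at 45 days 5 of 19 were higher, KCNMB1 and PLN among them, and 2 lower. Of all genes, 3.05% were higher and 2.32% lower at 15 days, and 4.82% and 2.74% at 45 days. PLN was in the count of each library. Of the isoforms 3 of 12 were higher without induction (MYL12A, MYH9 and TAGLN2), 2 of 12 at 15 days and 4 of 12 at 45 days, and 0 lower. Of the regulators 3 of 11 were higher without induction (MEF2C, FOXC1 and FOXC2), 2 of 9 at 15 days and 3 of 9 at 45 days, and 0 lower.

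Over 22 profiles of class and library with at least 50 cells, the genes most like the mean of the 10 were looked for among 7008 genes. They were NR2F2-AS1 (Pearson r 0.90), NOTCH3 (0.89), LURAP1L (0.88), NR2F2 (0.88) and VASN (0.87). NOTCH3 is one of the mural markers used for the classes. For ACTA2 they were FOXS1 (0.93), BGN (0.92) and CD248 (0.91), of which FOXS1 is also such a marker, and for TAGLN RPL12 (0.83), GUCY1A1 (0.83) and CERCAM (0.80). Among the 10 themselves ACTA2 ran closest to CNN1 (0.84) and MYH11 (0.83), TPM2 to CALD1 (0.88) and TAGLN to TPM1 (0.81), while TPM1 and SMTN were unrelated (0.03). The profiles share 3 libraries and their depth, so these values describe likeness only.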

How the data were processed

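The deposited values are raw counts of UMIs per gene and barcode, made by the authors with Cell Ranger 3.0.0 on GRCh38, per the submitters' processing notes; the matrix headers name version 3.0.1. The gene annotation and the use of strand were not given in the sources used here. Kept barcodes had 1000 UMIs and 500 genes or more and no more than 20% mitochondrial UMIs, 86.6% to 89.6% of a library. Likely doublets were removed by simulated neighbours at 0.8% per 1000 barcodes, and some remain. Cells of the 3 libraries were clustered together with scanpy 1.11.5 (Python 3.11.15; totals scaled to 10000, 2000 variable genes, 30 components, 15 neighbours, Leiden resolution 1.0), leaving out the 10 genes and the listed related genes. A cluster was named where at least 3 markers, and 1 in 3 of a set, were 2-fold raised with a UMI in 10% of its cells; the scoring rule was chosen after looking at the data.

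UMIs were summed and scaled to CPM. Intervals are exact Poisson, Clopper-Pearson and conditional binomial at 95%; a count of 0 is given the limit of 3 counts. Sums with free RNA from broken cells cannot be corrected here. The script was tested on simulated data. The genes and lists were chosen with earlier results of these data known. All 10 genes are named, and from the lists those past 2-fold, at most 8 per list and contrast; others named from the lists (MYLK, SRF, MEF2C, ACTB and PLN between libraries) were chosen after their values were seen, as were cluster 3 and the cells left out. Alternatives covered the added constant, floor, scaling, cell filter, doublets, clustering and thinning.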

Additional observations from a re-analysis of the deposited data

Results flagged for a closer look

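TAGLN at 15 days against no induction ran opposite ways in liver-like cells and in 4 other classes. In liver-like cells (cluster 17, 251 cells at 15 days and 83 without induction) it was at 32.0 CPM (129 UMIs) against 11.4 CPM (9 UMIs), a log2 ratio of 1.17. At 15 days 10 cells held 86 of the 129 UMIs (66.7%), with up to 25 in 1 cell. Without the 10 cells with most TAGLN in each library, TAGLN was at 11.2 CPM (43 UMIs) at 15 days and 0 CPM (0 UMIs) without induction. The 9 uninduced UMIs lay in 9 cells, so this removal takes all of them and cannot show what the difference rests on. Leaving these cells out was chosen after seeing the data. In mural-like cells the log2 ratio was -2.60, a difference of 3.77. It was -2.57 in mesenchymal-like cells, a difference of 3.75, and -2.58 in cycling-like cells, a difference of 3.75. In epithelial-like cells it was -2.32, a difference of 3.497. With 1 library per group these differences were not tested. The liver markers of that cluster summed to 35567 CPM at 15 days and 20698 CPM without induction, and their part in the result was not tested. At 45 days liver-like cells numbered 20, too few to compare.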

How the results depend on the processing

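No paired analysis was possible because each group has 1 library. All 62 alternative values of the counts of genes past 2-fold stayed within 1.5 times the values reported, and no log2 ratio past 2-fold changed sign. At 45 days TAGLN, TPM1 and MYL9 were past 2-fold in all 13 alternatives, and ACTA2 joined with median of ratios scaling and with the class makeup held. At 15 days TAGLN and TPM1 were past it in all 13, and MYL9 joined in 7 of them. Over 8 definitions of the classes, ACTA2 and TAGLN were past 2-fold lower in mural-like cells in 8 of 8 at both times, with log2 ratios at 45 days of -2.22 to -1.17 for ACTA2 and -2.74 to -1.22 for TAGLN, and at 15 days of -2.55 to -1.51 and -3.27 to -1.92. MYH11 was past it in 6 of 8 at 45 days and 7 of 8 at 15 days, MYL9 in 6 and 5, TPM1 in 6 and 3, and ACTG2 in 7 and 7. The alternatives that hold the makeup, or leave out epithelial-like cells, cluster 3 or top cells, were chosen after seeing the data. Thinned to 1000 UMIs, shares of mural-like cells with an ACTA2 UMI were 15.7%, 7.27% and 9.88% in the order of none, 15 and 45 days. Of single log2 ratios, 329 alternative values moved past their counting interval and 291 did not. Counts of MYH11, CNN1 and ACTG2 limit what can be said of them over whole libraries.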
